A study of Mus musculus with 4 samples.

Results

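Marginal zone B cells made up 284 of the 5520 B cells in the B cell library, out of 15646 cells in both libraries of the series. They were chosen by their UMIs, the unique molecular identifiers that count single RNA molecules in a cell. A member had UMIs of at least 3 of 5 markers (Cd1d1, S1pr3, Myof, Cd9 and Dtx1), at least 1 UMI of Cd79a, a chain of the B cell receptor complex, and none of Cd3e, of the B1 cell factor Bhlhe41 or of the division marker Mki67. It also had at least 200 genes, under 10% mitochondrial UMIs, and 1 hashtag antibody with at least 10 UMIs that exceeded the next hashtag 3 times. The cells came from spleens of mice that carry a Cre recombinase expressed in B lineage cells, on the C57BL/6NRj background. In KO mice Il2rb, the beta chain of the interleukin-2 and interleukin-15 receptors, is deleted in B cells, and Cre mice served as controls, so every group carried the Cre allele. The sample annotation gives the same genotype, with floxed Il2rb, for both, and the genotype of a cell was therefore taken from its hashtag. Mice were unimmunized (day 0) or had been given sheep red blood cells into the peritoneum 4 days earlier (day 4). B cells were isolated with magnetic beads, marked with 1 hashtag per group and sequenced as 1 library with 10x Genomics 5′ chemistry. Each of the 4 groups was thus 1 pool, with an unstated number of mice of unstated age. Values below list the control and then the KO pool of day 0, followed by the control and then the KO pool of day 4. In this sequence the pools held 49, 48, 79 and 108 marginal zone B cells.

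Marginal zone B cells are long-lived B cells that sit between the white and the red pulp of the spleen, where they meet blood-borne particles. They arise when Notch2 on a B cell precursor is engaged by a Delta-like ligand of stromal cells, and they are held in place by sphingosine 1-phosphate receptors and integrins. They carry much complement receptor 2 (CD21), CD1d and surface IgM, and little CD23 and IgD. They answer bacterial components through Toll-like receptors and B cell receptors within days, as early plasmablasts that secrete mainly IgM and IgG3, and they carry immune complexes on CD21 into follicles. Follicular B cells, the majority of splenic B cells, recirculate through blood and lymph and enter germinal centers.

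The values of the 5 markers chose the cells and are given as a description only. Dtx1, which encodes a Deltex regulator of the Notch pathway, was detected in 95.1% of members. Cd1d1, which presents lipids to natural killer T cells, was detected in 72.2%, Myof, a membrane repair protein, in 71.1%, the tetraspanin Cd9 in 62.7% and the sphingosine 1-phosphate receptor S1pr3 in 51.4%. Of the members, 168 showed 3 markers, 83 showed 4 and 33 showed all 5. The commonest combination was Cd1d1, Myof and Dtx1, in 37 cells. Just outside the rule stood 474 B cells with 2 markers, in which Dtx1 was at 199 CPM, the UMIs of a gene scaled to the summed UMIs of the cells, Cd1d1 at 69.5, Myof at 56.2, Cd9 at 45.9 and S1pr3 at 23.9. Just inside, the cells with 3 markers had 294, 90.7, 100.3, 81.2 and 52.5 CPM. The markers differ in how far they are B cell genes. In 7713 Cd3e+ cells of the T cell library, with a median of 5192 UMIs, Dtx1 was detected in 35.2% of cells, Cd9 in 27.9% and Cd1d1 in 11.5%, Myof by 1 UMI and S1pr3 by none. A further 49 B cells had 3 or more markers and Bhlhe41 UMIs, and 24 had Mki67 UMIs without Bhlhe41, and these were left out by the rule.

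Cells that met the rule were deep. The median depth was 8246, 10906, 9562 and 9301 UMIs in marginal zone B cells, against 4303, 4554, 5253 and 5083 in the 2798 B cells that had none of the 5 markers and no Bhlhe41 or Mki67 UMI. These marker-negative B cells (647, 547, 694 and 910 by pool) served as the comparator. Summed over cells, the pools held 478187, 530361, 806431 and 1241073 UMIs of marginal zone B cells. No doublet caller was run beyond the hashtag rule. Of the members, 35 had over 3 times the median UMIs of their pool's B cells, 12 had UMIs of 2 or more macrophage, neutrophil or dendritic cell genes, and 2 carried a barcode that also occurs in the T cell library, as 84 barcodes did. The summed level of 15 macrophage and monocyte genes was 20.9, 203.6, 16.1 and 116.8 CPM, and 83.3% and 86.2% of it in the KO pools came from 1 cell each. The 11 dendritic cell genes summed to 50.2, 69.8, 59.5 and 74.1 CPM, led by Bst2, with 7 to 9 of them at 0. The neutrophil, T and NK, and erythroid and platelet lists stayed at or below 33.0 CPM in each pool of marginal zone B cells, with 6 to 8 of 10, 8 to 12 of 13 and 6 to 9 of 10 genes at 0. No cell of the T cell library met the rule.

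The share of B cells that met the rule was 4.45% (95% exact binomial interval 3.31 to 5.84) in control day 0, 4.89% (3.63 to 6.43) in KO day 0, 5.31% (4.23 to 6.58) in control day 4 and 5.54% (4.57 to 6.65) in KO day 4. Intervals here and below cover counting error only, and with 1 pool a group no test was possible. The 4 intervals overlapped. Day 4 over day 0 gave a ratio of 1.19 (0.826 to 1.74) for the control pools and 1.13 (0.799 to 1.63) for the KO pools. KO over control gave 1.098 (0.722 to 1.67) for day 0 and 1.04 (0.773 to 1.41) for day 4. The B cells of the day 4 pools were deeper, with medians of 6076 and 5851 UMIs against 4676 and 4953. Thinning to 4000 UMIs left out the cells below that depth. It kept 729, 714, 1182 and 1584 B cells, against 1101, 982, 1487 and 1950 before. Among these, 111 cells met the rule, at shares of 3.16%, 3.78%, 2.12% and 2.27%. The day ratios there were 0.670 (0.365 to 1.24) for control and 0.601 (0.355 to 1.03) for KO. The part of the left-out cells in these ratios was not tested. Thinned to 2000 UMIs, 28 cells met the rule, at 0.625%, 0.556% and 0.735% after 0 of 1066 B cells in control day 0, where the exact upper limit was 0.345%. The rule was applied anew to the thinned counts, and 23 of the 28 cells also met it with all UMIs. There the KO day ratio was 1.18 (0.425 to 3.73), and the day ratio of control had a lower bound of 1.26. With 4 markers required, KO over control at day 0 was 1.77 (0.964 to 3.33). The intervals of KO over control included 1 with all UMIs, with 4 markers and at 4000 UMIs. At 2000 UMIs that of day 4 did (0.518 to 3.64), while at day 0, 6 KO cells against none of control gave a lower bound of 1.31.

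**Figure D1:**
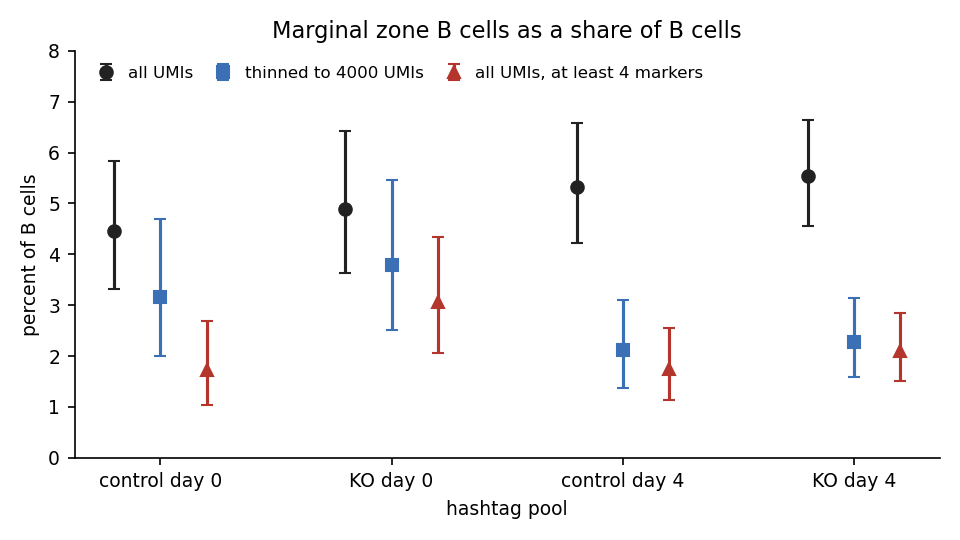
Share of B cells that met the rule (vertical axis, percent) in each hashtag pool (horizontal axis), with all UMIs, with cells thinned to 4000 UMIs and with at least 4 markers. Bars are 95% exact binomial intervals. Thinning to 4000 UMIs left out the cells below that depth. With all UMIs the shares ran from 4.45% to 5.54%, and after thinning both day 4 pools (2.12% and 2.27%) lay below both day 0 pools (3.16% and 3.78%).

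Genes that the rule did not use followed the label. Cr2 (ENSMUSG00000026616, chromosome 1, 195136811 to 195176716, minus strand, mm10), the gene of CD21, was at 1123, 965, 863 and 879 CPM in marginal zone B cells and 330.2, 323, 246 and 336 CPM in marker-negative B cells. All 4 marginal zone values lay above all 4 marker-negative values. Fcer2a (ENSMUSG00000005540, chromosome 8, 3681737 to 3694175, minus strand), the gene of CD23, was at 219.6, 124, 306 and 218 CPM in marginal zone B cells and 655, 671, 622 and 678 CPM in marker-negative B cells, and the groups did not overlap in the other direction. To set single cells side by side at equal depth, each cell of at least 2000 UMIs was thinned to 2000 UMIs. Cr2 without Fcer2a was then seen in 56.3% of marginal zone B cells (95% exact binomial interval 50.4 to 62.2) and in 11.0% (9.84 to 12.2) of marker-negative B cells, whereas Fcer2a without Cr2 was seen in 6.69% and 38.6%. The Cr2+ Fcer2a- share was 31.2% in B cells with 2 markers, 43.5% in cells with 3, 75.9% in cells with 4 and 72.7% (54.5 to 86.7) in the 33 cells with 5. The rule thus cuts a range. From 0 to 5 markers, Cr2 stood at 308, 425, 577, 795, 1084 and 1102 CPM and Fcer2a at 657, 561, 422, 272, 171 and 164 CPM. Asb2, which encodes a ubiquitin ligase subunit, was at 0.562, 2.15, 9.62, 28.6, 41.4 and 62.8 CPM, and Plac8 at 413, 569.8, 771, 1047, 1145 and 1307 CPM. Ighd, in contrast, was at 818, 720.2, 623, 415, 278 and 254 CPM. Notch2 itself stayed between 91.0 and 112 CPM over the whole range.

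**Figure D2:**
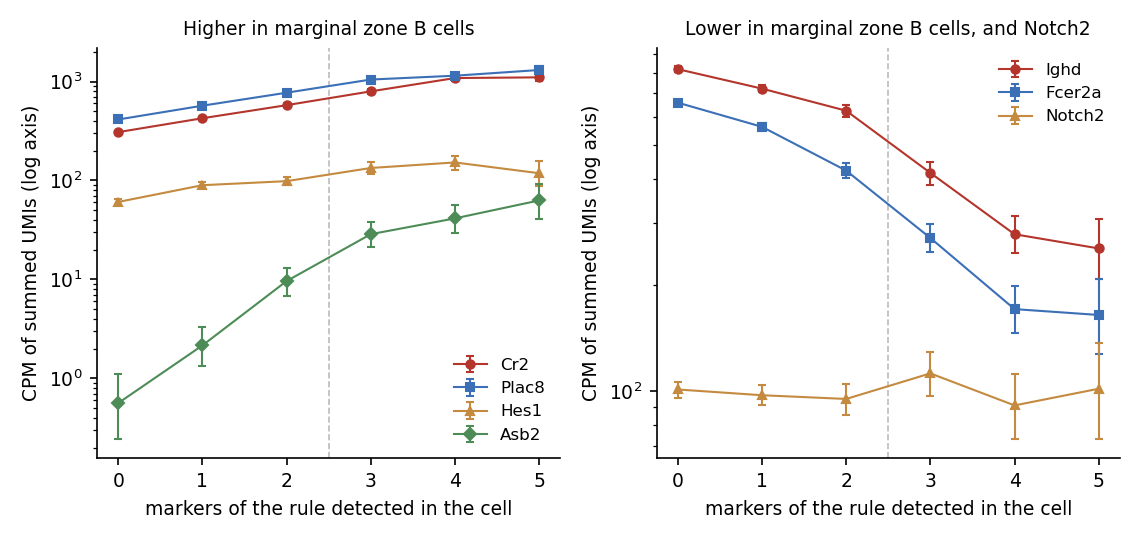
CPM of summed UMIs (log axis) of 7 genes that the rule did not use, by the number of rule markers detected in a cell, for B cells without Bhlhe41 and Mki67 UMIs. Bars are 95% Poisson intervals and the dashed line is the threshold of the rule. Cr2, Plac8, Hes1 and Asb2 were higher on the right of the line, Ighd and Fcer2a were lower, and Notch2 was level.

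Marginal zone B cells were then compared with marker-negative B cells over all genes with edgeR's quasi-likelihood test on the UMIs summed per pool and class, with the pool as a block. The 4 pools differ in genotype and day, and a call rests on the class difference averaged over them. Of 8946 genes tested, 908 were higher in marginal zone B cells (10.1%) and 777 lower (8.69%) at a Benjamini-Hochberg adjusted p under 0.05, and the median log2 difference of all genes was 0.005. Against 292 marker-negative cells whose depth lay within the middle range of the marginal zone B cells of their pool, a comparator added after the data were seen, 357 of 6615 genes were higher and 334 lower. The members were not limited, so depth was closer but not equal. Their medians of 8246, 10906, 9562 and 9301 UMIs stood against 8408.5, 8612, 8075.5 and 9626. Of the first set of calls, 335 of the higher and 309 of the lower genes were called again, and 727 of 732 and 668 of 674 that could be tested kept their sign. In cells thinned to 4000 UMIs 673 of 748 and 693 of 724 did, and in cells thinned to 2000 UMIs 293 of 677 and 685 of 704. Both classes were chosen anew from the thinned counts, so these comparisons do not hold the same cells. The depth-matched comparator also holds fewer cells, so a call lost there cannot be put down to depth alone. It is named below where it ends a call, and genes with few UMIs, such as Tlr3 and Ackr2, could not be tested in it. Log2 differences are given with the standard error of the fit.

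All gene lists used here and below were chosen with earlier results of these data known, so their counts are a description. They stand beside 10.1% higher and 8.69% lower over all genes, and at matched depth beside 357 higher and 334 lower of 6615. Of genes known from marginal zone B cells, 15 of 19 tested members were higher and 0 lower, with a median log2 difference of 1.70. The largest differences were those of genes nearly absent from the comparator. Asb2 was at 39.7, 45.2, 18.6 and 45.1 CPM in marginal zone B cells and 1.03, 0.384, 0.260 and 0.617 CPM in marker-negative B cells (log2 difference 5.97 ± 0.36, edgeR adjusted p = 3.94e-24). Ackr3, an atypical receptor that scavenges the chemokine CXCL12, was at 46.0, 43.4, 36.0 and 27.4 CPM in marginal zone B cells and 0, 0.384, 1.30 and 0.411 CPM in marker-negative B cells (5.95 ± 0.37, edgeR adjusted p = 4.21e-23). In both genes every marginal zone value lay above every marker-negative value. Fcrl5, an Fc receptor-like protein of innate-like B cells, was at 167, 247, 184 and 181 CPM in marginal zone B cells and 8.95, 14.6, 13.2 and 13.4 CPM in marker-negative B cells (3.98 ± 0.12). Cd36, a scavenger receptor for lipids, was at 71.1, 58.5, 36.0 and 71.7 CPM in marginal zone B cells and 19.6, 14.6, 6.49 and 3.70 CPM in marker-negative B cells (2.73 ± 0.21), and its lowest marginal zone value was that of control day 4. Sema7a, a membrane-bound semaphorin, was higher by 2.60, and Tbc1d9 and Zc3h12c by 4.54 and 3.40 from means of 20.8 ± 5.24 and 15.5 ± 4.08 CPM (SD, n = 4 pools). The abundant Plac8 was at 981, 1307, 1001 and 1155 CPM in marginal zone B cells and 342, 444, 433 and 424 CPM in marker-negative B cells (1.502 ± 0.06), and Mzb1, an endoplasmic reticulum cochaperone of IgM assembly named for marginal zone and B1 cells, at 843, 756, 649.8 and 606 CPM in marginal zone B cells and 329, 355, 386 and 327 CPM in marker-negative B cells (1.08 ± 0.07). Dusp16, a MAP kinase phosphatase, Pik3r4, a regulatory subunit of the class III phosphatidylinositol 3-kinase, Tm6sf1, Gpr34 and the tetraspanin Cd81 were higher by 1.51, 1.98, 1.67, 2.36 and 0.72. Ephx1 (−0.29), Lgals1 (−0.40), Anxa2 (0.71) and Nid1 (0.88) did not pass the test, and Mfge8 had too few UMIs. In the depth-matched comparison, which could test 14 members, 12 were higher.

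**Figure D3:**
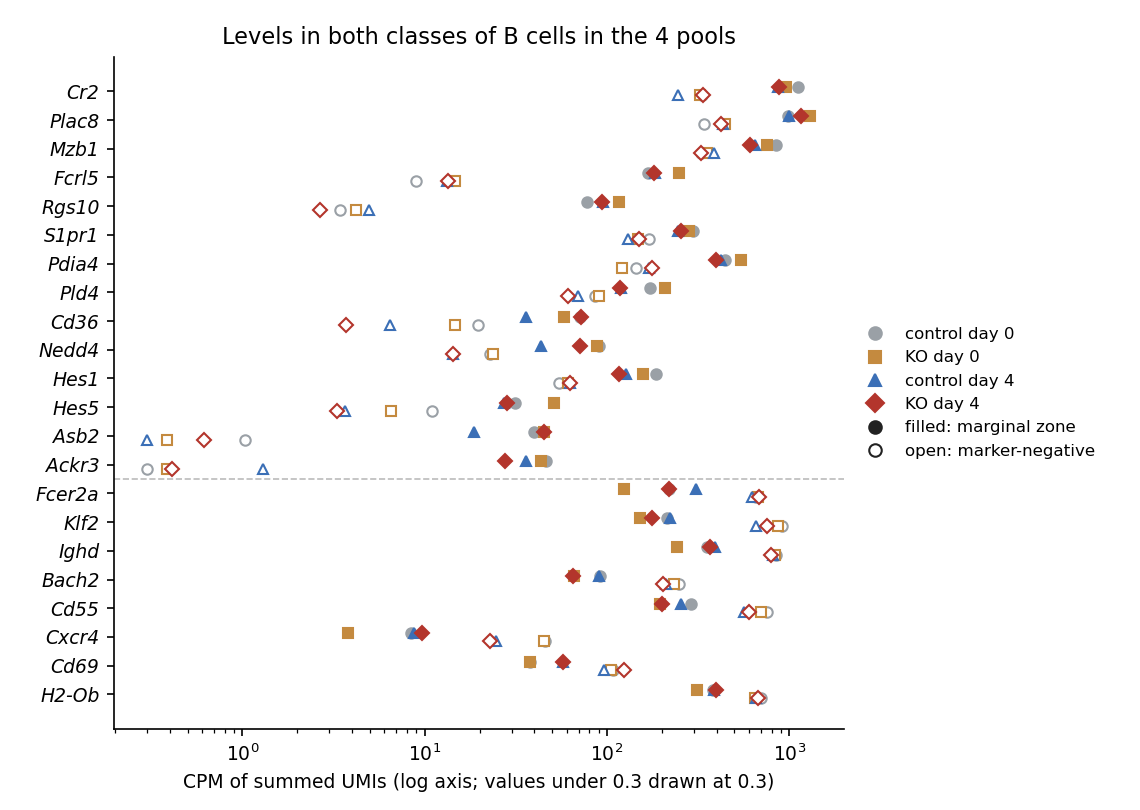
CPM of summed UMIs (log axis) of 22 genes in marginal zone (filled) and marker-negative (open) B cells of each pool. Above the dashed line the 4 filled points of a gene lie to the right of its 4 open points, as in Cr2 (863 to 1123 against 246 to 336 CPM), and below it they lie to the left, as in Klf2.

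Genes of follicular B cells were mostly lower: 2 of 14 tested members were higher and 11 lower, with a median log2 difference of −1.08. Klf2, a transcription factor that keeps B cells in the follicular pool, was at 213, 153, 221 and 177 CPM in marginal zone B cells and 910.4, 865, 658 and 752 CPM in marker-negative B cells (log2 difference −1.96 ± 0.08, edgeR adjusted p = 6.29e-34). The groups did not overlap, and every pool showed the drop. Fcer2a was lower by 1.51, Bach2, a repressor of plasma cell differentiation, by 1.44, Cd55, which protects cells from complement, by 1.40 and Ighd by 1.19 on the log2 scale. Il4ra (−1.17), Satb1 (−0.87) and Btla (−0.84) were lower as well. Ccr7, the receptor that guides cells to T cell zones, and Icosl were lower by 0.99 and 0.55, but not against depth-matched cells (−0.36, edgeR adjusted p = 0.201, and −0.35, edgeR adjusted p = 0.145). Cxcr5, the receptor for the follicular chemokine CXCL13, and Ly6d were slightly higher (0.27 ± 0.10 and 0.19 ± 0.05). Foxp1 did not pass the test (−0.03).

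The Notch pathway was ordered by the roles of its genes. Receptors and the enzymes that glycosylate and cleave them were called about as often as all genes. Of 15 tested members 1 was higher and 2 lower, against 10.1% and 8.69% of all genes, with a median log2 difference of 0.04. Notch2 was at 113, 113, 102 and 98.3 CPM in marginal zone B cells and 114, 100.1, 90.8 and 102 CPM in marker-negative B cells (0.13 ± 0.10, edgeR adjusted p = 0.444), and the groups overlapped. Notch1 (0.29), the ligand-dependent protease Adam10 (0.30) and the gamma-secretase subunits Ncstn (0.01) and Aph1a (−0.08) did not pass the test. Psen2 was higher (0.39), and Psenen (−0.35) and the Fringe glycosyltransferase Lfng (−0.66) were lower, none of them called in the depth-matched comparison. Among the nuclear effectors 1 of 12 passed and was higher, near the 10.1% of all genes. It was Maml2, a Mastermind coactivator, at 43.9, 33.9, 39.7 and 31.4 CPM in marginal zone B cells and 27.2, 23.0, 11.2 and 20.1 CPM in marker-negative B cells (0.98 ± 0.19, edgeR adjusted p = 3.85e-05). Rbpj, the DNA-binding partner of cleaved Notch, was at 29.3, 33.9, 29.8 and 24.98 CPM in marginal zone B cells and 19.3, 18.8, 23.6 and 23.6 CPM in marker-negative B cells (0.46 ± 0.19, edgeR adjusted p = 0.0964). Its groups did not overlap, but the test was not passed. Of 6 tested inhibitors and turnover genes, the ubiquitin ligase Nedd4 was at 89.9, 88.6, 43.4 and 70.9 CPM in marginal zone B cells and 22.7, 23.8, 14.3 and 14.4 CPM in marker-negative B cells (2.06 ± 0.15, edgeR adjusted p = 6.00e-19) and Dtx3 was higher by 0.71, the latter not at matched depth (0.67). Numb (−0.12), Itch (−0.05) and Fbxw7 (0.12) did not pass.

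Differences were larger among the targets, of which 3 of 5 that could be tested were higher and none lower. At matched depth 2 of 5 were higher. The rule used Dtx1, a Notch pathway gene, and the comparator had none of its UMIs. Genes that vary with Dtx1 could therefore differ between the classes through the rule itself. The repressor Hes1 was at 186, 158, 128 and 116 CPM in marginal zone B cells and 54.4, 61.0, 62.5 and 62.7 CPM in marker-negative B cells (1.29 ± 0.11, edgeR adjusted p = 5.11e-16). Hes5, a related repressor, was at 31.4, 50.9, 27.3 and 28.2 CPM in marginal zone B cells and 11.0, 6.52, 3.63 and 3.29 CPM in marker-negative B cells (2.67 ± 0.25, edgeR adjusted p = 1.82e-14). In both genes each marginal zone value exceeded each marker-negative value. Myc was at 105, 67.9, 95.5 and 147 CPM in marginal zone B cells and 64.4, 53.3, 53.5 and 58.8 CPM in marker-negative B cells (0.98 ± 0.12), with its highest value in KO day 4, and did not pass against depth-matched cells (0.48, edgeR adjusted p = 0.0665). Hey1, Hey2, Heyl, Il2ra, Ccnd1, Gata3 and Cdkn1a had too few UMIs to test. Cr2 is itself a gene that Notch2 signalling raises in B cells. The promoters of Hes5 and Cr2, from 250 bases before the start to 49 after it (RefSeq, GRCm38.p6, the build of mm10), are shown because both hold the core motif that Rbpj binds, GTGGGAA or its reverse complement TTCCCAC, printed in capitals.
Hes5, chr4:154960673-154960972, plus strand: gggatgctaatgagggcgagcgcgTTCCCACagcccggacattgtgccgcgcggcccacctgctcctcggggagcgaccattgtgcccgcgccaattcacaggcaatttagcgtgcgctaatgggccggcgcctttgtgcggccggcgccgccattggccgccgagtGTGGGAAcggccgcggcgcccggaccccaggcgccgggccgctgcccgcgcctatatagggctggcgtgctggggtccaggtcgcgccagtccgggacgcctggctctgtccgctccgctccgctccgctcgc
Cr2, chr1:195176670-195176969, minus strand: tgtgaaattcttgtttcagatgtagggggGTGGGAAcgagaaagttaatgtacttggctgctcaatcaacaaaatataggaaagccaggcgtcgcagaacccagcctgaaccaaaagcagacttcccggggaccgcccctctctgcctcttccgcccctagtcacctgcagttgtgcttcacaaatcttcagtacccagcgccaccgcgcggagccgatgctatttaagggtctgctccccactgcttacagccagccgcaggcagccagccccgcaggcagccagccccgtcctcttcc
The matches of Hes5 begin 226 and 83 bases before the start and that of Cr2 221 bases before it. The motif, searched on both strands, occurred in 2097 of 32851 promoters of this length (6.38%). Counted by gene, with any promoter of a gene, it occurred in 1958 of 27025 genes (7.2%). Also by gene, it was present in 2 of 7 listed Notch targets with a promoter in the table (Hes5 and Hey2) and in 3 of 16 listed marginal zone genes (Cr2, Anxa2 and Mfge8). Other lists ran from none, such as 0 of 7 chemokine receptors, to 5 of 14 BCL2 family genes. Among the rule markers Cd9 held it and S1pr3, Myof and Dtx1 did not. A match describes these letters and shows no binding.

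Receptors that place B cells in the spleen differed in both directions. S1pr1, whose ligand in blood draws B cells out of the follicle, was at 295, 283, 247 and 255 CPM in marginal zone B cells and 169, 148, 129.8 and 150.4 CPM in marker-negative B cells (0.92 ± 0.08, edgeR adjusted p = 8.08e-16). S1pr4, a related receptor, was lower (−1.34 ± 0.14), as was the oxysterol receptor Gpr183 (−0.67 ± 0.09), which positions activated B cells at the follicle edge. Gpr18 was lower by 0.27, but not against depth-matched cells. The cannabinoid receptor Cnr2, which helps to hold marginal zone B cells, was at 81.6, 94.3, 80.6 and 59.6 CPM in marginal zone B cells and 70.6, 69.0, 69.0 and 65.3 CPM in marker-negative B cells and did not pass (0.23 ± 0.12, edgeR adjusted p = 0.206). Of chemokine receptors, Cxcr4, which draws cells to CXCL12, was at 8.37, 3.77, 8.68 and 9.67 CPM in marginal zone B cells and 45.5, 44.9, 24.7 and 22.8 CPM in marker-negative B cells (−1.83 ± 0.26). Besides Ackr3, the scavenging receptor Ackr2 was higher (4.67 ± 0.46), at 17.2 against 0.655 CPM on average. Ccr6 did not pass (0.00171). Of integrin and adhesion genes, 6 of 16 tested members were higher and 5 lower, with a median log2 difference of 0.15. The integrin chains higher in marginal zone B cells were Itgb1 (1.44 ± 0.18), Itgav (0.74 ± 0.20), Itgal of LFA-1 (0.66 ± 0.13) and Itga4 (0.26 ± 0.09, but −0.0596 with the day 0 pools alone), together with Icam1 and Cd44, and of these Icam1 and Cd44 did not pass against depth-matched cells. Among the lower members were Itgb7 (−1.17 ± 0.14), which pairs with alpha 4 in gut homing, Icam2, Selplg and Cd47, of which Selplg and Cd47 lost the call at matched depth. Of G protein signalling and cytoskeleton genes, 2 of 20 tested were higher and 5 lower, against 10.1% and 8.69% of all genes. The G protein inhibitor Rgs10 was at 77.4, 117, 95.5 and 93.5 CPM in marginal zone B cells and 3.44, 4.22, 4.93 and 2.67 CPM in marker-negative B cells (4.72 ± 0.19, edgeR adjusted p = 4.99e-34), the largest difference of any gene named by size, and Rgs3 was higher by 1.80 at a mean of 11.0 ± 1.69 CPM (SD, n = 4 pools). Rhoh, Coro1a, Arhgap45, Ptk2b and Arhgef1 were lower by 0.77, 0.38, 0.55, 0.42 and 0.25, and Arhgap45 and Arhgef1 lost the call at matched depth, where 5 of 18 of the list were lower.

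Innate sensors were shifted upwards. Of Toll-like receptors and their partners, 9 of 19 tested members were higher and 1 lower, with a median log2 difference of 0.31. At matched depth 6 of 15 were higher. Tlr3, a sensor of double-stranded RNA, was at 16.7, 20.7, 6.20 and 10.5 CPM in marginal zone B cells and 2.75, 2.30, 2.60 and 3.49 CPM in marker-negative B cells (2.14 ± 0.38, edgeR adjusted p = 7.14e-06). Tlr9 and Tlr7, the endosomal sensors of DNA and single-stranded RNA, were higher by 0.67 and 0.64, and Tlr7 not against depth-matched cells (0.29). Unc93b1, which escorts endosomal receptors, was higher by 0.31. Ly96 (MD-2), which binds lipopolysaccharide, was higher (1.54 ± 0.27), while its receptor Tlr4 did not pass (0.18) and stayed at 9.39 ± 2.41 CPM (SD, n = 4 pools). The related pair Cd180 and Ly86, which modulate the response to lipopolysaccharide in B cells, were both higher (0.61 ± 0.08 and 0.44 ± 0.07), and Cd180 was at 245, 269.6, 224 and 255 CPM in marginal zone B cells and 160.5, 151, 169.5 and 191 CPM in marker-negative B cells. Pld4, an endosomal nuclease that trims ligands of Tlr9, was at 172, 209, 119 and 118 CPM in marginal zone B cells and 85.7, 90.5, 69.3 and 61.2 CPM in marker-negative B cells (1.06 ± 0.10), with no overlap. The kinase Irak1 was higher (0.36) and the interferon factor Irf7 lower (−0.54), neither at matched depth. The adaptors Myd88 (0.17) and Ticam1 (0.51) did not pass.

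B cell receptor signalling genes were split, with 9 of 29 higher and 6 lower. Among the higher were the Src kinases Blk (0.64 ± 0.08) and Lyn (0.26 ± 0.07), the adaptor Blnk (0.51 ± 0.07), the exchange factor Vav2 (0.67), and Malt1 (0.43), a protease of the complex that leads to NF-kB. Among inhibitors, the phosphatase Ptpn22 was at 31.4, 66.0, 31.0 and 31.4 CPM in marginal zone B cells and 18.2, 12.7, 11.4 and 11.7 CPM in marker-negative B cells (1.60 ± 0.21), and the inhibitory receptors Fcgr2b (0.52 ± 0.10) and Siglecg (0.32 ± 0.07) were higher too. Lower were Bcl10 (−0.49), the partner of Malt1, the phosphatase Ptpn6 (−0.34), Prkcb (−0.36), Lat2 (−0.39), Grb2 (−0.35) and Cd79b (−0.19). At matched depth 7 were higher and 4 lower, and Lyn, Vav2, Prkcb and Cd79b were among those that lost the call. Syk (−0.07), Btk (−0.12) and Cd22 (0.00259) did not pass. Of NF-kB genes 3 of 18 were higher, among them Traf1 (1.11 ± 0.17), and 4 lower, among them Bcl3 (−0.75 ± 0.14) and Relb (−0.56 ± 0.15), the last not called at matched depth, where 2 of 17 were lower. The BAFF receptor Tnfrsf13c, which carries survival signals, was lower (−0.62 ± 0.08), and Tnfrsf13b, the receptor TACI, did not pass (−0.01).

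Antigen presentation genes of the class II pathway were mostly lower. Of 12 tested, 9 were lower and 1 higher, with a median log2 difference of −0.30. The invariant chain Cd74 was at 15200, 13960, 17330 and 16190 CPM in marginal zone B cells and 20430, 19390, 22180 and 22550 CPM in marker-negative B cells (−0.36 ± 0.04), H2-Aa at −0.36 and H2-Ab1 at −0.28 on the log2 scale. The chaperone subunits H2-DMb1 (−0.79 ± 0.11) and H2-Ob (−0.78 ± 0.07) and the transactivator Ciita (−0.57 ± 0.09) were lower by more. Lgmn, an asparagine endopeptidase of endosomes, was higher (0.79 ± 0.10). Of costimulatory and related surface genes, Cd86 (0.93 ± 0.19), Cd274 (0.87 ± 0.17) and Cd24a (0.49 ± 0.07) were higher, and Cd83 (−0.75 ± 0.08), Cd69 (−1.07 ± 0.12), Slamf1 (−1.11 ± 0.20), Icosl and Cd2 (−0.53 ± 0.10) were lower, out of 13 tested. Cd2 and Icosl lost the call at matched depth. Cd69, which binds S1pr1 and removes it from the cell surface, was at 37.6, 37.7, 57.04 and 57.2 CPM in marginal zone B cells and 107, 105, 96.6 and 124 CPM in marker-negative B cells.

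Among B lineage transcription factors, 4 of 26 tested members were higher and 14 lower, with a median log2 difference of −0.25. The identity factors Pax5 (−0.14) and Ebf1 (−0.08) did not pass. Higher were Tcf4, an E protein (268, 211, 193 and 199.8 CPM in marginal zone B cells and 147, 148, 108 and 114 CPM in marker-negative B cells, log2 difference 0.84 ± 0.09), Irf4 (0.66 ± 0.13), Nfatc1 (0.61 ± 0.10) and Ikzf1 (0.37 ± 0.08). Lower were, besides Klf2 and Bach2, the germinal center repressor Bcl6 (−1.097 ± 0.15), Id3 (−0.91 ± 0.10), an inhibitor of E proteins, Mef2c (−0.67 ± 0.06), Klf3 (−0.71 ± 0.11) and Xbp1 (−0.47 ± 0.11), a factor of secretory cells. Xbp1 was at 50.2, 56.6, 90.5 and 87.0 CPM in marginal zone B cells and 81.3, 62.9, 127 and 135 CPM in marker-negative B cells. At matched depth 3 factors were higher and 7 lower, and Ikzf1 and Klf3 were among those that lost the call. Immediate early genes were mostly lower, 8 of 13 tested and 5 of 11 at matched depth, with Jund at 257, 226, 399 and 353 CPM in marginal zone B cells and 723, 653, 831 and 881 CPM in marker-negative B cells (−1.25 ± 0.07), Junb (−0.90 ± 0.12), Ier2 (−1.12 ± 0.12) and Zfp36 (−0.93 ± 0.09) among them. Nr4a1, a gene induced by B cell receptor signals, was higher (0.73 ± 0.24), but at −1.63 in cells thinned to 4000 UMIs, where it did not pass. Myc was higher, and not at matched depth (0.48). Egr1 was lower (−1.07 ± 0.31), but higher with the day 0 pools alone (0.93, edgeR adjusted p = 0.0182), and 33 of the 37 UMIs of its highest marginal zone pool, control day 0, lay in 1 cell. Of glucocorticoid-induced and quiescence genes 8 of 15 were lower, and 3 of 11 at matched depth. Tsc22d3, a glucocorticoid-induced leucine zipper protein, was at 60.6, 83.0, 58.3 and 56.4 CPM in marginal zone B cells and 252, 293, 126 and 176 CPM in marker-negative B cells (−1.57 ± 0.11), and its groups did not overlap, while Pdcd4 (0.91 ± 0.08) and Ddit4 (0.79 ± 0.13) were higher.

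Genes of growth were higher, but few of them against depth-matched cells. Of MYC and ribosome biogenesis genes, 11 of 20 tested were higher and none lower, with Npm1 at 1144, 999, 952 and 1220 CPM in marginal zone B cells and 650.4, 632, 754 and 660.3 CPM in marker-negative B cells (0.75 ± 0.06), Ncl (0.48 ± 0.07) and Cad (0.71 ± 0.20). Against depth-matched cells 1 of 18 was higher, Npm1 (0.35), and 1 lower, Nme1 (−0.30), a count more than 1.5 times smaller. Of lipid and glycolysis genes besides Cd36, the desaturase Scd2 was higher (1.51 ± 0.17), and Ldha (0.50 ± 0.08), Pgk1 (0.51 ± 0.11), Pkm (0.44 ± 0.09), Gapdh (0.32 ± 0.06) and Abcg1 (0.51 ± 0.16) were higher, but these last 5 not at matched depth. Of the secretory pathway, 7 of 29 were higher and 3 lower. Pdia4, a disulfide isomerase of the endoplasmic reticulum, was at 443, 543, 424 and 399 CPM in marginal zone B cells and 145, 121, 169.8 and 176 CPM in marker-negative B cells (1.60 ± 0.09, edgeR adjusted p = 3.03e-26), Edem1 (0.76 ± 0.15) and Mzb1 were higher, and Txndc5, another isomerase, was at 69.0, 67.9, 79.4 and 53.2 CPM in marginal zone B cells and 181, 164, 152 and 148 CPM in marker-negative B cells (−1.19 ± 0.11). Hspa5 (0.29) and Hsp90b1 (0.28) were higher by little and not at matched depth. At matched depth the balance of the list turned, with 3 of 28 higher and 6 lower.

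The immunoglobulin genes separated IgD from IgM. Ighm was at 1301, 1427, 1260 and 1141 CPM in marginal zone B cells and 1324, 1253, 1171 and 1229 CPM in marker-negative B cells (0.11 ± 0.05, edgeR adjusted p = 0.165), so that no difference in its RNA was detected, whereas Ighd was at 356, 243, 392 and 367 CPM in marginal zone B cells and 844, 837, 818 and 792 CPM in marker-negative B cells (−1.19 ± 0.07, edgeR adjusted p = 3.60e-24). Igkc was lower (−0.49 ± 0.07). Yet it made up at least 90% of 5 or more light chain UMIs in 0 of 284 members and 6 of 2798 marker-negative B cells. The lambda genes did so in 40 and 408 cells. Igkc thus seldom led the light chain counts of a cell, and its difference cannot be read as one of light chain use. Ighg3, the isotype of early responses to polysaccharides, was higher (1.86 ± 0.40), with 11.5 against 2.77 CPM on average, from 4, 10, 4 and 17 UMIs, of which 8 in KO day 0 lay in 1 cell. Among plasma cell genes Jchain and Igha were lower (−3.36 ± 0.42 and −4.30 ± 0.42), but against marker-negative B cells with Fcer2a UMIs the values were 1.095 and 0.56, and with the day 0 pools alone 2.26 and 1.69. Without the control day 4 pool Igha was at 0.87 and Jchain at −1.71, and without the KO day 0 pool they were at −5.83 and −6.54. All 69 Jchain UMIs of KO day 0 marginal zone B cells lay in 1 cell, and 2149 of the 4129 Igha UMIs of control day 4 marker-negative B cells did. Prdm1, Sdc1 and Tnfrsf17 had too few UMIs to test.

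Interleukin-2 receptor chains other than the common gamma chain were near the limit of detection. Il2rb (chromosome 15, 78479256 to 78495271, minus strand) had 0, 0, 2 and 0 UMIs in marginal zone B cells, where 3 UMIs correspond to 6.27, 5.66, 3.72 and 2.42 CPM, and 0 UMIs in marker-negative B cells of every pool. The deletion could therefore not be checked in these cells, and no label names the exons that are removed. Il2ra had 2, 1, 1 and 9 UMIs, 7 of the 9 in 1 cell, and Il15ra had 1, 2, 1 and 12, spread over 11 cells in KO day 4. Il2rg was at 408, 296, 301 and 345 CPM in marginal zone B cells and 481, 418, 384 and 423 CPM in marker-negative B cells (−0.27 ± 0.07) and lost its call at matched depth (−0.12). Of this family and its STAT5 pathway 1 of 16 tested was higher and 6 lower, and 3 lower at matched depth. The higher one was Il9r, a receptor that pairs with the gamma chain, at 83.7, 69.8, 74.4 and 83.8 CPM in marginal zone B cells and 28.6, 33.4, 28.6 and 26.3 CPM in marker-negative B cells (1.52 ± 0.13, edgeR adjusted p = 1.65e-15), with no overlap. Il4ra, Il21r (−0.67 ± 0.13), Jak1 (−0.46 ± 0.08) and Socs1 (−0.96 ± 0.20) were lower, Il21r not at matched depth. Of BCL2 family genes, Bcl2a1b (1.23 ± 0.13) and Bcl2a1d (1.32 ± 0.17), near-identical copies between which reads could be split, and Bid (1.25 ± 0.14) were higher, and Mcl1 was lower (−0.27 ± 0.07). Bcl2a1d lost the call at matched depth (0.61). Type I interferon genes did not differ as a group, with 2 of 22 higher, among them Isg15 (1.13 ± 0.14), and 2 lower.

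Markers of other B cell states were looked at because the rule could admit such cells. Of 10 B1 cell genes, 4 could be tested and 2 were higher, the aryl hydrocarbon receptor Ahr at 18.8, 32.0, 31.0 and 32.2 CPM in marginal zone B cells and 2.07, 3.07, 3.63 and 3.08 CPM in marker-negative B cells (3.31 ± 0.28) and Plscr1 (1.29 ± 0.35). The summed level of the list was 43.9 to 111 CPM in marginal zone and 21.7 to 27.7 CPM in marker-negative B cells, 2 to 5 of its genes were at 0 in each marginal zone pool, and Cd5 was at 0.654 CPM over all pools. The 49 cells set aside for Bhlhe41 UMIs had Cd5 at 7.63, Jchain at 5815 and Ighm at 4420 CPM, against 26.2 CPM of Jchain and 1247 CPM of Ighm in members. Of 6 tested genes of transitional B cells, which have just left the bone marrow, 5 were lower, among them Vpreb3 (−1.12 ± 0.09) and Ms4a4c (−0.77 ± 0.08), and Cd24a was higher. Cd93, their surface marker, was at 1.31 CPM in members and 6.54 CPM in marker-negative B cells. Of germinal center genes 3 of 12 could be tested, and Cd38, which germinal center B cells of mice lack, was higher (0.56 ± 0.08). Of 8 tested cycling genes 1 was lower and none higher. The part of cells of other states in the differences above was not tested.

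Genes named by size alone (the 15 highest and 15 lowest that passed the test in the same direction in all pools, with at least 50 CPM in 1 class) added further members to these groups. Marcks, a substrate of protein kinase C at the cell membrane, was at 255, 247, 176 and 242 CPM in marginal zone B cells and 51.0, 55.6, 43.6 and 37.6 CPM in marker-negative B cells (2.39 ± 0.10). Grn, the lysosomal progranulin, was at 136, 117, 96.7 and 115 CPM in marginal zone B cells and 27.2, 30.7, 26.2 and 24.9 CPM in marker-negative B cells (2.16 ± 0.12). Dph5, an enzyme of diphthamide synthesis (2.08 ± 0.11), Rsu1, a partner of integrin adhesion complexes (1.81 ± 0.13), and Cfp, the complement factor properdin (1.83 ± 0.16), were also higher. Among the lowest, Gadd45g, a stress-induced growth arrest gene, was at 6.27, 3.77, 26.0 and 14.5 CPM in marginal zone B cells and 28.6, 27.6, 103 and 109 CPM in marker-negative B cells (−2.42 ± 0.19), and its marker-negative values were higher at day 4 than at day 0. Emp3 (−1.67 ± 0.11), the intermediate filament Vim (−1.55 ± 0.10), Sfn (−1.71 ± 0.18), Rflnb (−1.504 ± 0.15), Cd200 (−1.38 ± 0.15), an inhibitory ligand, the proton channel Hvcn1 (−1.33 ± 0.09), and Trim59 (−1.33 ± 0.13) were lower.

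**Figure D4:**
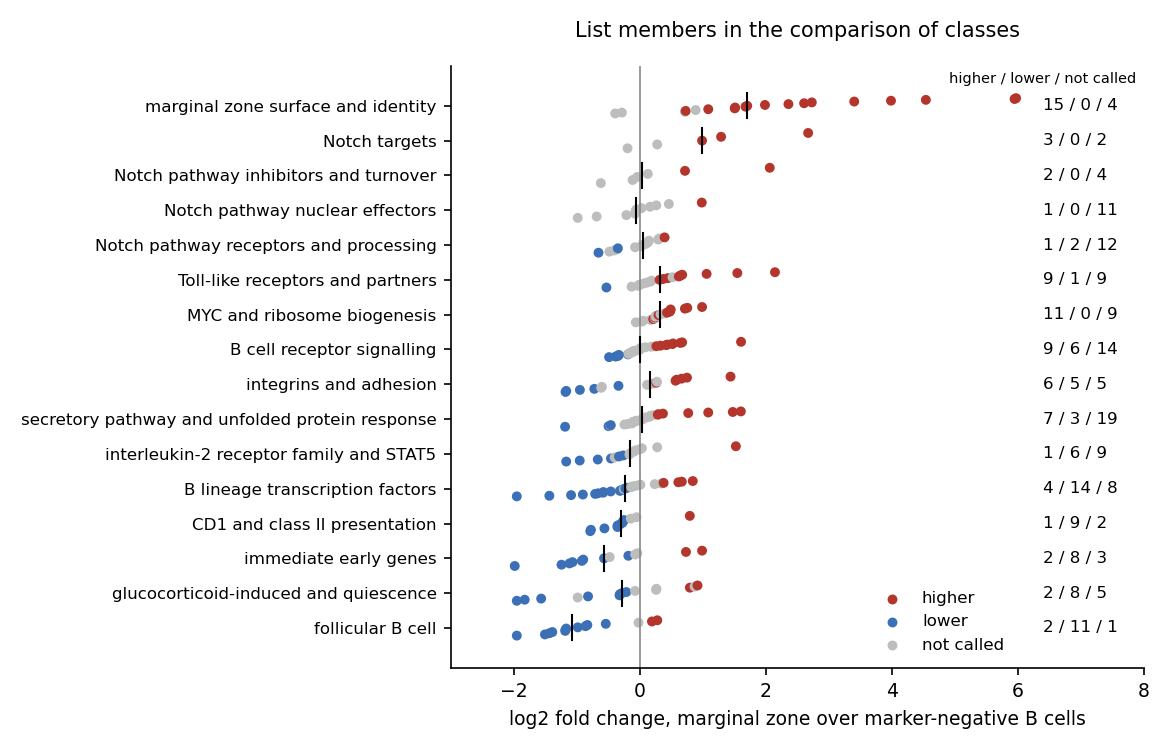
Log2 fold change of each tested list member (points) between marginal zone and marker-negative B cells, for 16 lists, with the list median as a bar and the counts of members higher, lower and not called on the right. Points are colored by the edgeR call at an adjusted p under 0.05. The marginal zone list (15 of 19 higher) and the follicular list (11 of 14 lower) lie at opposite ends. The Notch receptors, with a median of 0.04, lie below the Notch targets, with a median of 0.98. Lists were chosen with earlier results of these data known, and the rule itself used the Notch pathway gene Dtx1.

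At day 4 after sheep red blood cells, marginal zone B cells shared part of the change of other B cells. Each comparison of days was 1 pool against 1 pool, so a gene was counted when its CPM ratio was at least 1.5 or at most 1/1.5, with at least 30 UMIs in the 2 sums together. In control 326 of 5146 genes were past the fold upwards (6.34%) and 468 downwards (9.09%), and in KO 516 of 6196 upwards (8.33%) and 455 downwards (7.34%). Most of these did not recur. Of the 320 and 344 upward genes that could be looked at in both genotypes, 44 were shared (13.8% and 12.8%), and 26 of the control genes went the opposite way in KO. Downwards 45 of 453 and 279 were shared (9.93% and 16.1%) and 34 went the opposite way. Across 5073 genes, which are not independent replicates, the log2 ratios of the genotypes had a Pearson r of 0.059. Of the 20 control genes named by size none was past the fold in the same direction in KO, and Zc3h12a was past it in the opposite one (2.10). Of the KO genes named by size, 2 of 5 upward and 1 of 7 downward genes that could be looked at in control were past the fold in the same direction.

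Genes past the fold in both genotypes, with both counting intervals clear of 1, numbered 14 upwards and 8 downwards, and the first were led by activation genes. Cd83, a surface protein of activated B cells, went from 102 to 288 CPM in control, a ratio of 2.81 (2.06 to 3.90), and from 66.0 to 285 CPM in KO, a ratio of 4.32 (3.05 to 6.30). In marker-negative B cells its ratios were 3.12 and 3.43. Samsn1, an adaptor that dampens B cell activation, went from 79.5 to 309 CPM in control (3.88 (2.75 to 5.62)) and from 109 to 266 CPM in KO (2.43 (1.83 to 3.27)), against ratios of 6.01 and 6.76 in marker-negative B cells. The marker-negative intervals of Samsn1 were 5.33 to 6.80 in control, which overlapped that of marginal zone B cells, and 5.98 to 7.66 in KO, which did not. The difference between classes was not tested. Il4i1, an amino acid oxidase induced in activated B cells, had ratios of 1.88 (1.38 to 2.60) and 2.69 (1.93 to 3.81), and Ciita of 2.13 (1.55 to 2.98) and 1.56 (1.18 to 2.08). Xbp1, the factor of the secretory response, had ratios of 1.80 (1.12 to 2.99) and 1.54 (1.02 to 2.39), and Jund of 1.55 (1.26 to 1.93) and 1.56 (1.27 to 1.93). The others were Sypl, Snx29, Wdfy2, Pxk, Otulin, Mif4gd, Dennd5b and Scn4a, with ratios between 1.52 and 3.33. With at least 4 markers required, 9 of the 14 stayed past the fold in both genotypes, 6 of them with both intervals clear of 1 (Cd83, Ciita, Dennd5b, Samsn1, Sypl and Wdfy2). There Cd83 had ratios of 3.09 (1.93 to 5.16) and 3.56 (2.18 to 6.08) and Samsn1 of 3.43 (2.05 to 6.05) and 2.77 (1.88 to 4.17), and in cells thinned to 4000 UMIs Cd83 had 1.61 in control, while at 4 markers Il4i1 had 0.980 (0.618 to 1.57) and 1.54 (0.948 to 2.56) and Jund 1.15 (0.840 to 1.59) and 1.103 (0.824 to 1.48). Without very deep cells 9 of the 14 stayed past the fold, 7 with intervals clear of 1.

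Downwards, Sema7a went from 52.3 to 27.3 CPM in control (0.522 (0.281 to 0.964)) and from 62.2 to 18.5 CPM in KO (0.298 (0.167 to 0.523)), while its ratios in marker-negative B cells were 1.45 (0.714 to 3.09) and 1.14 (0.601 to 2.27). The others were Fam129c (0.522 and 0.537), the cytidine deaminase Apobec1 (0.530 and 0.611), Ltn1 (0.332 and 0.530), a ubiquitin ligase of stalled ribosomes, Rnf111, Rsrc2, Ylpm1 and the unnamed locus Gm47283. With at least 4 markers 4 of the 8 stayed past the fold in both genotypes and 2 kept intervals clear of 1, Rnf111 and Rsrc2. The KO ratios of Apobec1, Fam129c and Ltn1 were then 0.975 (0.516 to 1.87), 0.798 (0.451 to 1.42) and 0.741 (0.328 to 1.68), and the control ratio of Sema7a was 0.771 (0.282 to 2.14). Without very deep cells 7 of the 8 stayed past the fold, 3 with intervals clear of 1. Other marginal zone genes past the fold downwards were Asb2 (0.468 (0.221 to 0.972)) and Cd36 (0.506 (0.297 to 0.855)) in control and Ackr3, Lgals1 and Tbc1d9 in KO, the last 3 with intervals that include 1. That made 3 of 13 listed marginal zone genes in control and 4 of 15 in KO, against 9.09% and 7.34% of all genes. None was past the fold upwards, and the medians were −0.38 and −0.30 log2 against −0.05 and 0.00107 over all genes. Cr2 was not past the fold (ratios 0.768 (0.686 to 0.862) and 0.911 (0.819 to 1.01)), nor were Notch2 (0.9004 (0.631 to 1.29) and 0.869 (0.633 to 1.20)), Hes1 (0.686 (0.512 to 0.922) and 0.733 (0.556 to 0.971)) or Klf2 (1.03 (0.807 to 1.33) and 1.16 (0.896 to 1.52)). Both intervals of Hes1 lay below 1, at marker-negative ratios of 1.15 and 1.03. Fcer2a was past the fold upwards in KO (1.75 (1.33 to 2.32)), with a ratio of 1.395 (1.11 to 1.77) in control and of 0.9499 and 1.01 in marker-negative B cells. Members with only 3 markers numbered 30 of 49, 18 of 48, 53 of 79 and 67 of 108 in the pools. Fcer2a was lower and Cr2 higher in members with more markers, and the part of this mix in the ratios was not tested.

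**Figure D5:**
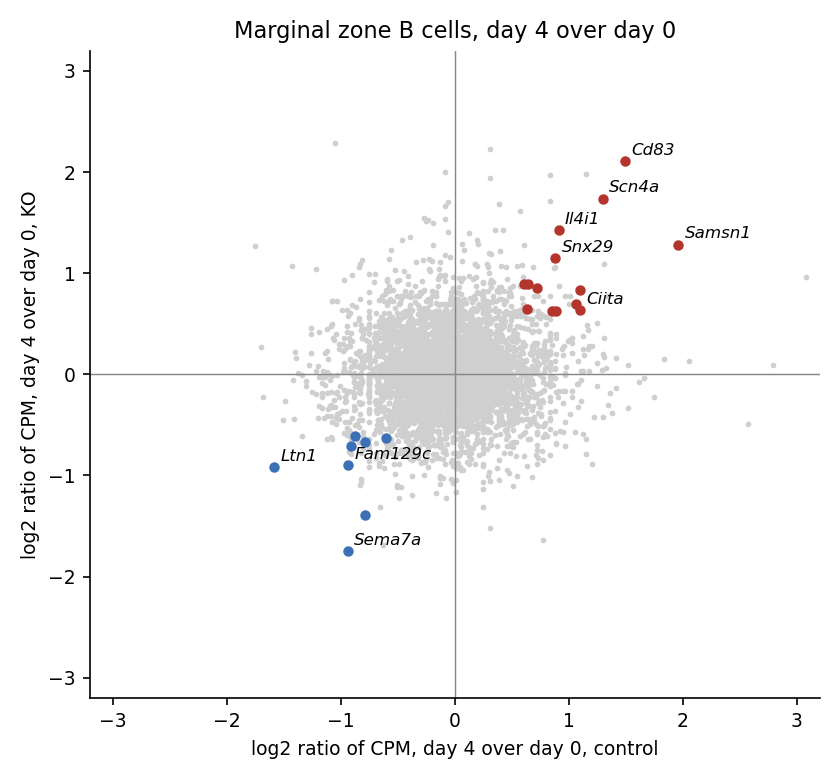
Log2 CPM ratio of day 4 over day 0 in marginal zone B cells of control (horizontal axis) and KO (vertical axis) mice, 1 pool each, for 5073 genes (gray), of which 1 lies outside the axes. Colored points are the 14 genes higher and the 8 lower in both with intervals that exclude 1. Cd83 and Samsn1 lie farthest along the diagonal, in a cloud with a Pearson r of 0.059.

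Growth genes were past the fold upwards more often in KO than in control. Of MYC and ribosome biogenesis genes, 8 of 18 were past the fold upwards in KO (median 0.41 log2) and 1 of 17 in control (−0.02). Of all genes 8.33% and 6.34% were, and the difference between the genotypes was not tested. Myc went from 67.9 to 147 CPM in KO (2.16 (1.504 to 3.18)) and from 105 to 95.5 CPM in control (0.913 (0.631 to 1.33)). Nop58 (2.45 (1.66 to 3.74)), Srm (1.90 (1.19 to 3.18)), Nme1 (1.71 (1.35 to 2.18)) and C1qbp (1.56 (1.18 to 2.11)) followed it in KO, at marker-negative ratios of 1.23, 1.11, 1.38 and 1.07. The KO day 0 pool was the lowest of the 4 pools for Myc and Nop58. The genes with the largest KO ratios besides Cd83 were Ergic1 (4.06), Xrcc4, Scamp4, Phactr4 and Cog2, at 28 to 38 UMIs against 3 or 4, and their marker-negative ratios were 0.81 to 1.10. Of control genes the highest were Cdca4 (5.93 (1.84 to 30.4), 30 UMIs against 3) and Abhd16a (3.56 (1.37 to 11.7)), and the lowest Zc3h12a (0.371 (0.201 to 0.668)), which encodes the ribonuclease regnase-1. Egr1 was at 77.4 CPM in control day 0 and 2.48 CPM in control day 4, which rests on the single cell named above. Il21r was higher at day 4 in KO (2.81 (1.52 to 5.67)), where its day 0 value was the lowest of any pool.

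Few differences between KO and control recurred on both days. At day 0, 285 of 4380 genes were past the fold upwards in KO (6.51%) and 390 downwards (8.9%), and at day 4, 458 of 6625 upwards (6.91%) and 353 downwards (5.33%). In the genes looked at on both days, 15 of 282 and 160 upward genes were shared (5.32% and 9.38%), and 6 of the day 0 genes went the opposite way at day 4. Downwards 14 of 388 and 103 were shared (3.61% and 13.6%) and 23 went the opposite way. The log2 ratios had a Pearson r of −0.0049 across 4372 genes. None of the genes named by size on one day was past the fold in the same direction on the other, where 24 of the 40 could be looked at, and Zc3h12a was past it in the opposite one (0.310 and 1.75). Past the fold on both days with intervals clear of 1 were 3 genes upwards and 3 downwards. Trp53inp1, a p53-induced autophagy gene, was at 18.8, 58.5, 13.6 and 32.2 CPM, and KO over control was 3.11 (1.44 to 7.42) and 2.36 (1.19 to 5.11), with 1.84 and 1.71 in marker-negative B cells. Both KO pools lay above both control pools. Tmem163, a zinc transporter, was at 81.6, 35.8, 58.3 and 24.2 CPM, and KO over control was 0.439 (0.240 to 0.779) and 0.415 (0.253 to 0.670), with marker-negative ratios of 0.904 and 1.01. With at least 4 markers the day 4 ratio of Tmem163 was 0.679 (0.301 to 1.55). Cerk, ceramide kinase, was at 85.7, 45.2, 62.0 and 41.1 CPM, with ratios of 0.528 (0.305 to 0.894) and 0.663 (0.440 to 0.999). With at least 4 markers they were 0.852 (0.376 to 2.01) and 0.589 (0.306 to 1.13), and without very deep cells the day 4 ratio was 0.707 (0.454 to 1.099). Gm43305 (chromosome 14, 54292443 to 54297456, minus strand, a processed transcript) was at 192, 88.6, 269 and 101 CPM in marginal zone and 213, 82.5, 261 and 119 CPM in marker-negative B cells, lower in KO in both classes. The upward pair Lyz2 and Cebpb rested on single cells. Of the Lyz2 UMIs, 71 of 76 in KO day 0 and 90 of 92 in KO day 4 lay in 1 cell each, and without cells that had UMIs of other lineages Cebpb had ratios of 1.66 and 0.899.

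Single pools stood out in other genes. Il21r, the interleukin-21 receptor, was at 87.8, 22.6, 76.9 and 63.6 CPM in marginal zone B cells, and KO over control at day 0 was 0.258 (0.123 to 0.498), against 0.983 in marker-negative B cells. At day 4 it was 0.828 (0.586 to 1.17). At day 0 the NF-kB gene Nfkbid (0.421 (0.206 to 0.818)), Rel (0.640 (0.460 to 0.887)), Zfp36 (0.521 (0.372 to 0.726)) and Dusp2 (0.605 (0.413 to 0.881)) were lower in KO. At day 4 the ratios of these 4 genes were 1.36, 0.964, 0.952 and 0.942. At day 0, 4 of 16 NF-kB and 4 of 9 immediate early genes were past the fold downwards, against 390 of all 4380 genes (8.9%). Of the 37 Egr1 UMIs in control day 0, 33 lay in 1 cell. The part of single cells in the other ratios was not tested. Itgb1, which was higher in marginal zone B cells, was at 33.5, 73.5, 53.3 and 36.3 CPM, and its KO level relative to control was 2.20 (1.20 to 4.21) before and 0.680 (0.438 to 1.06) after immunization. Asb2 and Cd36 were higher in KO at day 4 (2.43 (1.35 to 4.62) and 1.99 (1.30 to 3.15)) and not at day 0 (1.14 (0.598 to 2.20) and 0.822 (0.489 to 1.38)), the control day 4 pool being the lowest of the 4 for both. No listed marginal zone gene was past the fold at day 0. At day 4, 2 of 16 were upwards and 2 downwards, against 6.91% and 5.33% of all genes. Cr2 had KO to control ratios of 0.860 (0.760 to 0.972) and 1.02 (0.925 to 1.12) and Hes5 of 1.62 (0.833 to 3.28) and 1.03 (0.590 to 1.85). Fcer2a was lower in KO on both days (0.567 (0.410 to 0.778) and 0.710 (0.596 to 0.848)), with marker-negative ratios of 1.02 and 1.09. At day 0, 18 of 48 KO members had only 3 markers, against 30 of 49 of control. At day 4 they were 67 of 108 and 53 of 79, and the part of this mix in the ratios was not tested.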

How the data were processed

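Single cells of 1 splenic B and 1 T cell library were read from the UMI count matrices as deposited, made by the authors with Cell Ranger 5.0.0 on mm10, per the submitters' processing notes. The hashtag counts were deposited in the same matrices. Members and gene lists were chosen with earlier results of these data known. Summed UMIs of both classes in the 4 pools (8 sums) were tested with edgeR 4.0.16 (TMM, filterByExpr, glmQLFit and glmQLFTest, pool as block, Benjamini-Hochberg), leaving out the rule genes and V, D and J segments. DESeq2 1.42.0 was an alternative. With 1 pool a group, pools were compared by CPM ratios with exact conditional binomial 95% intervals and no test. Genes were named as members of the lists and by rank. Between classes these were the 15 highest and 15 lowest log2 differences among genes past the threshold with the same direction in all 4 pools and at least 50 CPM in 1 class. For each comparison of pools they were the 10 highest and 10 lowest ratios with at least 30 UMIs in the 2 sums together, an interval that excludes 1, and detection in 10% or more of the higher pool's cells. At most 10% of the UMIs of the higher sum could lie in 1 cell. Rule genes, V, D and J segments, Gm, Rik and mt- genes were passed over. Genes past the fold in both comparisons of a pair were added after their values were seen. Nothing says how many mice a pool holds. With the pool as a block, p-values measure only how the class difference varied over these 4 pools, which differ in genotype and day. That variation may be partly technical and cannot be taken as the spread between mice. The test was also run on simulated data, whose outcome is not reported here. Alternatives covered scaling, filters, markers, depth, comparators, doubtful cells and each pool left out. Gene positions are from GENCODE on mm10. A few list members and 1 gene named by rank are not reported here.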

Additional observations from a re-analysis of the deposited data

Results flagged for a closer look

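In 15 of 231 genes looked at, 1 of the 4 pools lay apart from the other 3 in the log2 difference between marginal zone and marker-negative B cells, by Dixon's criterion at the 95% level, which chance alone meets in about 1 of 20 groups. The pool apart was control day 0 for Hes5 (1.53). The pool apart was KO day 0 for Ccr6 (−0.61), Ly86 (0.61), Psen2 (−0.0803), Scamp4 (−1.97) and Tcf4 (0.51). The pool apart was control day 4 for Ackr2 (7.11), Cebpb (0.19), Igkc (−1.05), Lfng (−0.26) and Maml2 (1.84). The pool apart was KO day 4 for Aph1a (0.18), Fbxw7 (−0.71), Icam1 (0.11) and Srm (0.90). The UMIs behind several of these values are few, and 0.5 UMIs were added to each sum before the difference was taken.

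Day ratios of Sema7a, an adhesion and signalling protein, lay on opposite sides of 1 in the 2 classes. Day 4 over day 0 was 0.522 in control and 0.298 in KO marginal zone B cells, and 1.45 and 1.14 in marker-negative B cells. The difference between the classes was not tested.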

How the results depend on the processing

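The counts of genes higher and lower in marginal zone B cells (908 and 777) were 493 and 352 with DESeq2, 357 and 334 against depth-matched cells, 261 and 226 in cells thinned to 4000 UMIs, and 10 and 104 in cells thinned to 2000 UMIs. At 2000 UMIs 28 cells met the rule, none of them in control day 0. With at least 4 markers 506 genes were lower, and with the day 0 pools alone, 477. Leaving out 1 pool at a time gave 657 to 834 higher and 547 to 674 lower genes. Without the pool block, which pairs the 2 classes within a pool, the counts were 754 and 591. Between genotypes and between days no paired analysis was possible because each group was 1 pool.

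The number of cells that met the rule was 116 with 4 markers and 28 and 111 in cells thinned to 2000 and 4000 UMIs. The shares were 1.73%, 3.06%, 1.75% and 2.10% with 4 markers, 0, 0.625%, 0.556% and 0.735% at 2000 UMIs and 3.16%, 3.78%, 2.12% and 2.27% at 4000 UMIs. The ratio of shares was 1.77 for KO over control at day 0 and 0.688 for the days in KO with 4 markers, and 0.601 (KO) and 0.670 (control) for the days at 4000 UMIs.

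Genes past the fold numbered 794 (control) and 971 (KO) between days and 675 (day 0) and 811 (day 4) between genotypes. In the same sequence they numbered 141, 185, 116 and 167 in cells thinned to 4000 UMIs and 60, 122, 43 and 72 with at least 100 UMIs. With 4 markers the 2 day comparisons gave 449 and 586, and at 2000 UMIs days in KO gave 22 and genotypes at day 4 gave 12. Thinned cells and stricter limits leave fewer members or fewer UMIs, and the cause of these moves was not tested further.

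Over all genes, 2 calls passed the threshold in the opposite direction at 2000 UMIs, and 293 of 677 higher and 685 of 704 lower calls kept their sign. The genes listed next are only called genes that are named in this text. Log2 differences among them that changed sign at 2000 UMIs, none past the threshold, were Bcl2a1d −0.95, Blnk −0.28, C1qbp −1.38, Cd24a −0.35, Cd274 −1.11, Cd44 −1.4, Dtx3 −7.09, Dusp16 −0.64, Fcgr2b −2.06, Gapdh −0.15, Hes1 −0.44, Hsp90b1 −0.28, Hspa5 −0.12, Icam1 −0.45, Ikzf1 −0.90, Irak1 −0.84, Irf4 −8.83, Irf7 0.15, Itga4 −0.33, Itgav −7.35, Ldha −0.20, Ly6d −0.0118, Lyn −0.25, Malt1 −0.20, Myc −0.26, Ncl −1.12, Nfatc1 −0.0996, Npm1 −0.33, Pgk1 −0.43, Pkm −0.40, Psen2 −0.62, Siglecg −0.0386, Srm −8.55, Tlr9 −0.33 and Vav2 −0.53. At 4000 UMIs they were Arhgef1 0.0299, Gapdh −0.0221, Nr4a1 −1.63 and Srm −0.59. With the day 0 pools alone they were Egr1 0.93, Igha 1.69, Itga4 −0.0596 and Jchain 2.26, and against cells with Fcer2a UMIs Igha 0.56 and Jchain 1.095, of which Egr1, Igha and Jchain at day 0 and Jchain against Fcer2a cells passed the threshold. Leaving out 1 pool at a time put Igha between −5.83 and 0.867. The ratio of Cebpb between genotypes at day 4 was 0.899 without cells of other lineages, and that of Il4i1 between days in control 0.980 with 4 markers. The pools held 48 to 108 members, which limits the precision of every ratio between them.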

Other observations

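Heavy chain V segments could be called in 212 marginal zone and 2199 marker-negative B cells. Ighv1-26 was called in 8.96% (95% exact binomial interval 5.48 to 13.6) and 5.68% (4.75 to 6.74), with intervals that overlap. Ighv1-80 was called in 4.72% (2.29 to 8.50) and 1.64% (1.15 to 2.26), and Ighv10-1 in 3.77% (1.64 to 7.30) and 1% (0.628 to 1.51). Other segments were lower in marginal zone B cells, among them Ighv1-81, at 0.472% (0.0119 to 2.60) and 2.73% (2.09 to 3.50). The values pool mice and were not tested.

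The antisense transcript Gm26740 was at 8.37, 211, 224 and 184 CPM in marginal zone and 2.75, 256, 208 and 216 CPM in marker-negative B cells, so that in both classes the control day 0 pool stood apart from the other 3. These genes were chosen after their values were seen.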
